A study of Mus musculus with 16 samples.

Results

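The 8 astrocyte libraries of a mouse series of 16 RNA-seq libraries were examined for departures from additivity between a conditional knockout of Rack1 in microglia (CKO) and an Alzheimer's disease (AD) model. The groups were AD CKO (the AD model with the knockout), CKO (the knockout without the model), AD WT (the model with intact Rack1) and WT (neither), with 2 libraries in each. The other 8 libraries of the series were from microglia, in the same 4 groups. All 8 astrocyte columns entered. Of 56980 genes in the astrocyte data 20116 passed the filter on low counts and were tested. Total counts lay between 29615853 and 35851170 per library. The knockout was placed in microglia per the study's description, so in astrocyte libraries the CKO labels name the state of the microglia in the mouse. The labels give neither the AD model nor the Cre driver, nor how the cells were separated, nor the age of the mice. The labels also leave unsaid if the 2 libraries of each group are from separate mice, so the p-values below measure only the spread between these libraries, which may be technical.

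For each gene the interaction was the CKO effect in the AD model (AD CKO over AD WT, log2) minus the CKO effect without it (CKO over WT, log2). An interaction of 0 is additivity on the log2 scale. A positive interaction (called higher) means that AD CKO lay above what the other groups add up to, and a negative one (called lower) that it lay below. The same departure can come from any of the groups, so the 6 comparisons between pairs of groups were read beside it. Astrocytes take up glutamate and GABA, buffer potassium and supply lipids to neurons. In disease they can become reactive, raising intermediate filaments, complement and protease inhibitors, and microglia send cytokines that shift this state. The protein made from Rack1 sits on ribosomes and serves as a platform for kinases.

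Levels are given as CPM (counts relative to the total of each library) after normalisation, for each of the 2 libraries of a group, and do not allow for gene length. Interactions and log2 fold changes are given ± standard error. Adjusted p-values are from edgeR's quasi-likelihood test, adjusted by Benjamini-Hochberg over all 20116 genes, and a gene is said to be called, to rise, to fall or to change where the value is under 0.05. In bulk libraries fewer cells of a type and less RNA per cell cannot be told apart.

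The libraries were mixed, and their make-up moved with the groups. Summed over 12 markers, astrocytes had 16427 and 16587 CPM in AD CKO, 12048 and 12277 CPM in CKO, 26131 and 26851 CPM in AD WT and 27034 and 27410 CPM in WT libraries. Oligodendrocyte markers had 21523 and 21382 CPM in AD CKO, 15202 and 15609 CPM in CKO, 8175 and 8396 CPM in AD WT and 17361 and 17437 CPM in WT libraries. They exceeded the astrocyte markers in the AD CKO and CKO libraries and not in the AD WT or WT libraries. Microglial markers summed to 1268 and 1248 CPM in AD CKO, 2054 and 1998 CPM in CKO, 1207 and 1189 CPM in AD WT and 533 and 527 CPM in WT libraries. Endothelial markers had 3328 and 3318 CPM in AD CKO, 6945 and 7054 CPM in CKO, 2948 and 2983 CPM in AD WT and 2449 and 2437 CPM in WT libraries, mural markers 1547 and 1498 CPM in AD CKO, 2343 and 2313 CPM in CKO, 1442 and 1409 CPM in AD WT and 979.9 and 943 CPM in WT libraries and ependymal and choroid markers 9559 and 9274 CPM in AD CKO, 13702 and 12588 CPM in CKO, 13936 and 13170 CPM in AD WT and 7824 and 7571 CPM in WT libraries. The AD WT libraries also stood apart in Xist, the RNA of the inactive X chromosome, with 13.3 and 15.3 CPM in AD WT against at most 0.167 CPM in each of the other libraries, while the 4 Y-linked genes looked at lay between 12.3 and 138 CPM in all 8 libraries. Both AD WT libraries share this, so it cannot be told apart from that group.

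**Figure D1:**
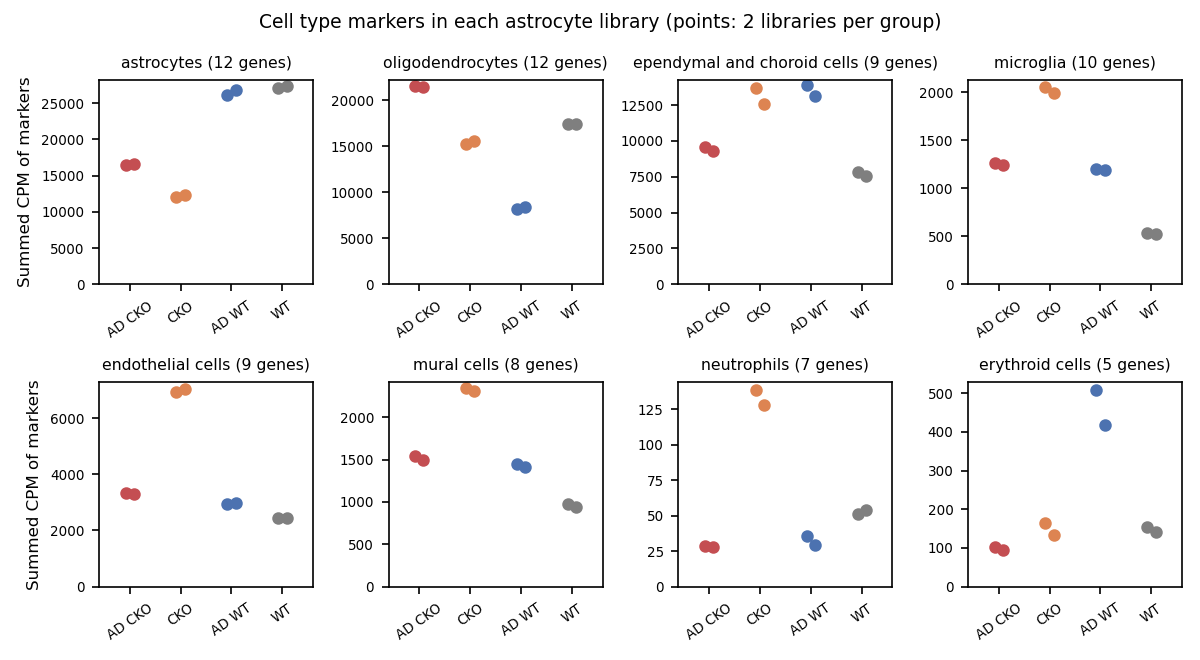
Summed CPM of the markers of 8 cell types (vertical axes, starting at 0) in each astrocyte library, 2 points per group. Oligodendrocyte markers were highest in AD CKO and lowest in AD WT, microglial markers lowest in WT, endothelial and mural markers highest in CKO, and erythroid markers highest in AD WT.

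In these libraries the levels of the groups departed from additivity for most of the tested genes. The interaction was called for 11630 genes (57.8% of those tested), of which 5940 were higher (29.5%) and 5690 lower (28.3%), against a median interaction of −0.02 over all tested genes. It was at least 1 in 2575 of the genes called higher and at most −1 in 2736 of those called lower. The sign was the same for the difference of differences of plain CPM in all but 35 of the called genes (0.301%). The common biological coefficient of variation was 0.0579, so the libraries of a group were close. The share called is high. Each count of called list members below is to be read against 29.5% higher and 28.3% lower.

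The CKO effect itself was called for 10483 genes in the AD model (52.1%, 25.1% higher and 27% lower) and 12879 without it (64%, 31.6% higher and 32.4% lower). Among the 11630 genes with a called interaction, 3947 (33.9%) had a CKO effect that passed without the AD model only and 1951 (16.8%) one that passed in the AD model only. Opposite CKO effects, both passing, were found for 3390 genes (29.1%). Effects in the same direction were found for 2076 (17.9%), of which 485 were larger and 1591 smaller in the AD model. In 266 genes (2.29%) neither effect passed alone. The AD model's own effect was called for 12036 genes with the knockout (AD CKO over CKO, 59.8%) and 7648 without it (AD WT over WT, 38%, 20% higher and 18% lower). AD CKO differed from WT in 47.5% and CKO from AD WT in 58.5% of the tested genes.

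**Figure D2:**
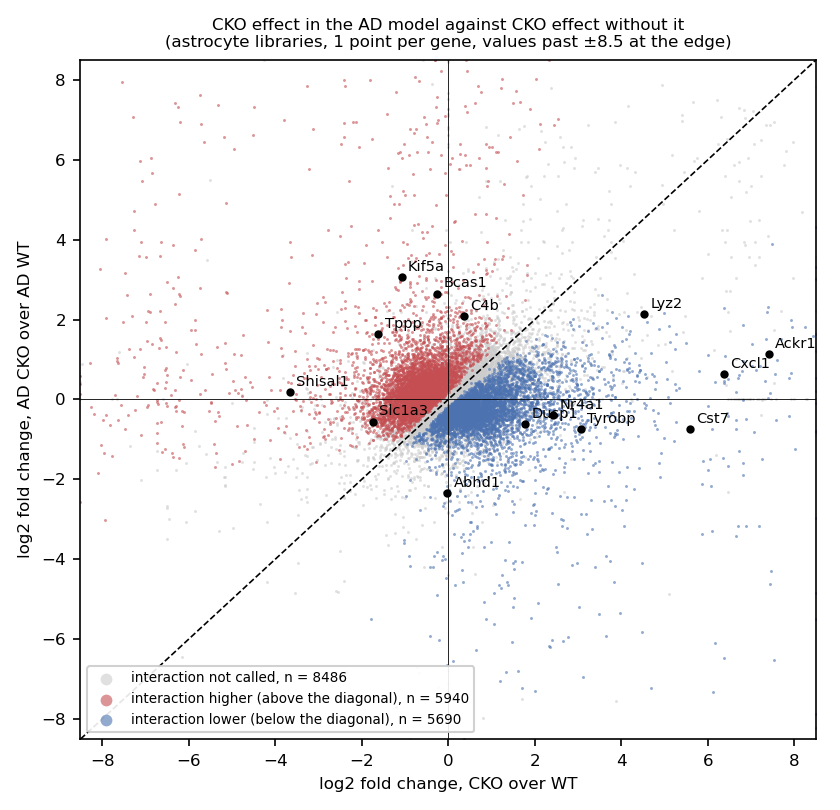
Log2 fold change of AD CKO over AD WT (vertical axis) against that of CKO over WT (horizontal axis) for every tested gene, in red where the interaction was called higher (5940), in blue where it was called lower (5690) and in grey where it was not called. The dashed diagonal is additivity. Cxcl1, Ackr1 and Cst7 lie far to the right and below the diagonal, and Kif5a, Tppp and Bcas1 lie above 0 on the vertical and left of 0 on the horizontal axis.

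The CKO group was most often the one that departed. For 50.5% of called genes it was the group farthest from the mean of the other groups on the log2 scale, against 22.9% for AD CKO, 10.4% for AD WT and 16.1% for WT. Over all tested genes those shares were 42.6% for CKO, 23.4% for AD CKO, 15.1% for AD WT and 18.8% for WT. By a stricter rule, 1 group was set apart where it differed from each of the others in the same direction and the others did not differ among themselves. This held for 2742 called genes (23.6%), of which CKO was set apart in 1476 (608 higher, 868 lower), AD CKO in 610 (250 higher, 360 lower), WT in 344 (118 higher, 226 lower) and AD WT in 312 (112 higher, 200 lower).

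Transcript length moved with the interaction. The genes were split into 10 classes of equal size by their longest transcript. In the class with the shortest transcripts (69 to 1108 bases) the median interaction was −1.06 and 2.86% were called higher and 48.2% lower, whereas in the eighth class (4109 to 4869 bases) the median was 0.48 and 51.9% were called higher and 14.8% lower. The same classes had median CKO effects of −0.33 and 0.10 in the AD model and 0.77 and −0.34 without it. With an offset for transcript length in each library the medians of the 10 classes lay between −0.06 and 0.07, 10850 genes were called (53.9%), and 8715 of the 11630 (74.9%) were called with the same sign, while 152 were called with the other sign. The part of length in the interaction of single genes was otherwise not tested, and the value with the offset is given below where it moved the interaction of a named gene or the median of a list by more than 1.5 times or turned its sign.

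**Figure D3:**
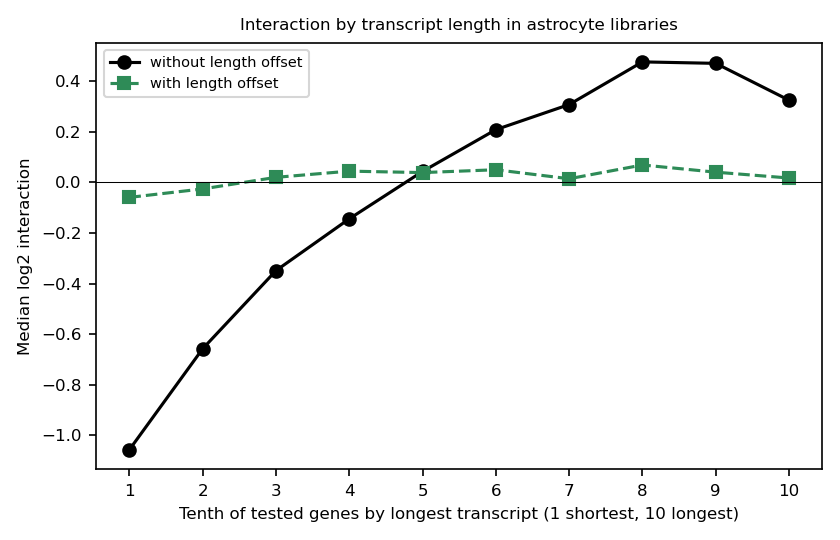
Median log2 interaction (vertical axis) of 10 equal classes of the tested genes by the length of their longest transcript (horizontal axis, shortest first), without a length offset (black) and with one (green). Without the offset the median runs from −1.06 in the shortest class to 0.48 in the eighth, and with it no class is further from 0 than 0.07.

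Rack1 (ENSMUSG00000020372; mm10, chromosome 11, 48800332 to 48806434, plus strand) had opposite CKO effects in astrocyte libraries. It stood at 54.7 and 53.3 CPM in AD CKO, 102 and 95.7 CPM in CKO, 76.6 and 72.9 CPM in AD WT and 61.1 and 57.9 CPM in WT libraries. The CKO libraries were highest and the AD CKO libraries lowest, although AD CKO and WT did not differ detectably (adjusted p = 0.066). The CKO effect was −0.47 ± 0.06 in the AD model and 0.74 ± 0.06 without it, and the interaction was −1.21 ± 0.09 (adjusted p = 5.98e-11). It was −1.62 with an offset by the longest and −0.68 with one by the principal transcript. In microglia, where the knockout was made, Rack1 averaged 47.5 CPM in AD CKO against 114 CPM in AD WT libraries, and 41.2 CPM in CKO against 96.6 CPM in WT libraries.

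Chemokine, adhesion and NF-kB target genes were high in CKO libraries, and most were lower in AD CKO libraries. In AD CKO over CKO 13 of 20 fell and 3 rose (median −0.56, against 28.4% and 31.4% of all tested genes). Of 20 tested genes listed as inflammatory cytokines or NF-kB targets, 15 were called lower and 0 higher, with a median of −1.24. All 20 rose in CKO over WT (median 2.03, against 31.6% of all tested genes), while 11 rose and 3 fell in AD CKO over AD WT (median 0.48, against 25.1% and 27%). NF-kB is a transcription factor held in the cytosol by an inhibitor, IkB-alpha, whose own gene Nfkbia is among its targets, and it drives chemokine and adhesion genes. The promoters of Cxcl1 and Nfkbia are shown because both genes had this pattern and both hold the NF-kB motif (GGG and TTTCC with any 2 bases between, on either strand), given in capitals, in the 300 bases from 250 before to 50 after the gene start (RefSeq, GRCm38.p6). Cxcl1 is at chr5:90890995-90891294, plus strand, and Nfkbia at chr12:55492598-55492897, minus strand, each written 5′ to 3′ along the gene.
Cxcl1: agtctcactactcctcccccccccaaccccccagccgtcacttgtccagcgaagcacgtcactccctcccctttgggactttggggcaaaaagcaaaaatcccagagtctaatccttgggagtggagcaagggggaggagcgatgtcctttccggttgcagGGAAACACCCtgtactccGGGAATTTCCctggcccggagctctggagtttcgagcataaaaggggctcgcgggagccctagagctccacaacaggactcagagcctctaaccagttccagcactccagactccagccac
Nfkbia: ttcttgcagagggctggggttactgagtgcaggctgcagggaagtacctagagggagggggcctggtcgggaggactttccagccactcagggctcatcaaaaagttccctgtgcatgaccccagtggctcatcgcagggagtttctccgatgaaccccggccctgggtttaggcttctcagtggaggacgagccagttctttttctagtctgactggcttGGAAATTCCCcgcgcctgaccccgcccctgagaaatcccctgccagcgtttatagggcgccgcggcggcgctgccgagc

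The motif was in 6 of the 15 promoters of this list that were in the RefSeq table (40%), against 512 of 27025 promoters in all (1.89%) and 266 of 13307 of tested genes (2%). Of those 6 genes 4 were called lower (Cxcl1, Cxcl2, Nfkbia and Tnfaip3), Nfkb2 was not called and Il6 was not tested. The list was drawn up to hold NF-kB targets, so a high share of the motif was built in and says nothing about the interaction. A match is a description of these letters and not a bound site.

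Cxcl1, which encodes a chemokine that attracts neutrophils, was at 3.04 and 3.04 CPM in AD CKO, 121 and 123 CPM in CKO, 1.88 and 2.01 CPM in AD WT and 1.64 and 1.33 CPM in WT libraries. Both CKO libraries were far above the other 6, none of which passed 3.04 CPM. The interaction was −5.73 ± 0.21 (adjusted p = 1.66e-15), with a CKO effect of 0.64 ± 0.15 in the AD model and 6.37 ± 0.11 without it. Nfkbia stood at 111 and 106 CPM in AD CKO, 451 and 396 CPM in CKO, 153 and 139 CPM in AD WT and 103 and 95.6 CPM in WT libraries. It fell in AD CKO over AD WT and rose in CKO over WT, with an interaction of −2.52 ± 0.09 (adjusted p = 7.35e-13). Icam1, the gene of a leukocyte adhesion molecule, had 44.6 and 44.1 CPM in AD CKO, 195 and 198 CPM in CKO, 23.7 and 24.9 CPM in AD WT and 20.1 and 19.8 CPM in WT libraries. Its libraries ran in the order CKO, AD CKO, AD WT and WT without overlap, and the interaction was −2.43 ± 0.09.

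Genes of venules and of immune cells from the blood shared the pattern. Ackr1, which encodes an atypical chemokine receptor of venular endothelium, was at 18.9 and 19.4 CPM in AD CKO, 218 and 208 CPM in CKO, 9.24 and 8.20 CPM in AD WT and 1.25 and 1.24 CPM in WT libraries, with an interaction of −6.28 ± 0.14. Ch25h, the gene of the enzyme that makes 25-hydroxycholesterol, was at 9.06 and 9.90 CPM in AD CKO, 154 and 157 CPM in CKO, 6.51 and 7.89 CPM in AD WT and 1.77 and 1.98 CPM in WT libraries, with an interaction of −5.97 ± 0.16. In both genes CKO was highest and WT lowest. Ccl19, whose product attracts CCR7-bearing lymphocytes and dendritic cells, was set apart in CKO alone, at 1.78 and 1.76 CPM in AD CKO, 15.7 and 14.6 CPM in CKO, 1.85 and 2.29 CPM in AD WT and 2.09 and 1.08 CPM in WT libraries, and its interaction was −3.49 ± 0.33. The immunoglobulin genes moved alike, Igkc at 15.4 and 14.1 CPM in AD CKO, 149 and 139.9 CPM in CKO, 24.2 and 21.9 CPM in AD WT and 5.67 and 4.82 CPM in WT libraries (interaction −5.43 ± 0.12) and Ighg2c at 0.334 and 0.346 CPM in AD CKO, 19.4 and 20.9 CPM in CKO, 2.87 and 2.47 CPM in AD WT and 0.0348 and 0 CPM in WT libraries. Reads of immunoglobulin genes can be shared with other segments, and Ighg2c had hardly any reads in WT, so no fold is given for it. Of the markers of lymphocytes 4 of 8 were called lower and 0 higher (median −2.27), and of those of neutrophils 6 of 7 lower and 1 higher (median −1.33), their sums being 3.32 and 3.62 CPM in AD CKO, 8.71 and 7.66 CPM in CKO, 3.96 and 3.25 CPM in AD WT and 1.64 and 1.33 CPM in WT libraries and 28.3 and 27.7 CPM in AD CKO, 139 and 128 CPM in CKO, 35.6 and 29.5 CPM in AD WT and 51.5 and 54.1 CPM in WT libraries. Over all tested genes 28.3% were called lower and 29.5% higher. The 8 lymphocyte markers together reached at most 8.71 CPM, so the size of their median is imprecise.

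Immediate early genes, which answer within minutes to synaptic activity, stress or tissue dissociation, were high in the same CKO libraries. Of 19 tested, 16 were called lower and 1 higher (median −1.32), against 28.3% and 29.5% of all tested genes. Their median CKO effect was 0.09 in the AD model and 1.45 without it. Nr4a1, which encodes an orphan nuclear receptor, had 35.9 and 35.8 CPM in AD CKO, 211 and 211 CPM in CKO, 47.1 and 47 CPM in AD WT and 39.6 and 38.7 CPM in WT libraries. The AD CKO libraries were the lowest and the CKO libraries the highest, and the interaction was −2.82 ± 0.08 (adjusted p = 1.38e-17). Dusp1, the gene of a phosphatase that switches off MAP kinases, had 208 and 198 CPM in AD CKO, 798 and 788 CPM in CKO, 309.5 and 314 CPM in AD WT and 221 and 239.8 CPM in WT libraries, and its interaction was −2.40 ± 0.07. Ier3, an early response gene, had 39.6 and 36 CPM in AD CKO, 136 and 137 CPM in CKO, 33.6 and 30 CPM in AD WT and 17.9 and 19.4 CPM in WT libraries, with an interaction of −2.62 ± 0.10, and the transcription factor gene Klf6 had an interaction of −1.83 ± 0.07.

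The promoter of Dusp1 (RefSeq, GRCm38.p6, chr17:26508423-26508722, minus strand, 5′ to 3′) is shown with its cyclic AMP response element TGACGTCA, the same on both strands, in capitals, since Dusp1 belongs to this group and holds the motif.
Dusp1: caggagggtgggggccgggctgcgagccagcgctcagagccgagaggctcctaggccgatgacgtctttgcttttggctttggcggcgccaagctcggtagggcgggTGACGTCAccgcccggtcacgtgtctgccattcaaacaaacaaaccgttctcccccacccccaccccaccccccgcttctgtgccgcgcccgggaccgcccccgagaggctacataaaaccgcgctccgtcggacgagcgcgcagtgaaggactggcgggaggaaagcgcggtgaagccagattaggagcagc
That element was in 2 of the 16 promoters of the immediate early list that were in the table (12.5%; Btg2 and Dusp1, both called lower), against 549 of 27025 in all (2.03%) and 417 of 13307 of tested genes (3.13%). The NF-kB motif was in 0 of these 16.

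Genes known to answer to glucocorticoids went the same way, with 12 of 14 called lower and 1 higher (median −1.67). Over all tested genes the shares were 28.3% and 29.5%. Tsc22d3, which encodes the anti-inflammatory leucine zipper protein GILZ, had 321 and 312 CPM in AD CKO, 782 and 804 CPM in CKO, 663 and 688 CPM in AD WT and 487 and 512 CPM in WT libraries. Here AD CKO was the group farthest from the rest, below all others, and the interaction was −1.76 ± 0.06 (adjusted p = 4.33e-16). Sgk1, the gene of a serum- and glucocorticoid-regulated kinase, had 138 and 133 CPM in AD CKO, 331 and 348 CPM in CKO, 139 and 139 CPM in AD WT and 99.3 and 101 CPM in WT libraries. CKO stood above the others, AD CKO and AD WT did not differ detectably (adjusted p = 0.548), and the interaction was −1.80 ± 0.07. Lcn2, which encodes the siderophore-binding protein lipocalin 2 and stands in this list and among the pan-reactive astrocyte genes, had 9.20 and 9.77 CPM in AD CKO, 62.1 and 55.8 CPM in CKO, 5.81 and 5.41 CPM in AD WT and 2.96 and 3.74 CPM in WT libraries, with an interaction of −3.37 ± 0.17. Cdkn1a, the gene of the cell cycle inhibitor p21, had 45.2 and 47.2 CPM in AD CKO, 147 and 126 CPM in CKO, 49.1 and 47.5 CPM in AD WT and 27.9 and 27 CPM in WT libraries and an interaction of −2.38 ± 0.10.

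Chaperones split. Of 17 tested, 10 were called lower and 3 higher (median −0.31), against 28.3% and 29.5% of all tested genes. Hspa1b, an inducible HSP70 gene with a near-identical neighbour, Hspa1a, with which reads may be shared, had 71.5 and 71.5 CPM in AD CKO, 194 and 187 CPM in CKO, 30.4 and 29.3 CPM in AD WT and 34.8 and 36 CPM in WT libraries. It rose with the knockout in both settings, less in the AD model, and the interaction was −1.17 ± 0.08. The HSP40 co-chaperone gene Dnajb1 had an interaction of −1.04 ± 0.07. Hsph1, the gene of HSP105, went the other way, at 145 and 146 CPM in AD CKO, 117 and 118 CPM in CKO, 57.5 and 61.6 CPM in AD WT and 83.2 and 88.1 CPM in WT libraries, with an interaction of 0.84 ± 0.08 (0.40 with the length offset). The unfolded protein and integrated stress response list had 7 of 20 higher and 11 lower (median −0.37, and −0.10 with the length offset, where 7 were higher and 4 lower), and apoptosis and p53 targets 5 of 16 higher and 7 lower (median −0.28, and 0.0093 with the length offset, where 5 were higher and 6 lower). A1 astrocyte genes, first described after inflammatory stimulation, had 1 of 12 higher and 8 lower (median −0.61), and A2 genes, first described after ischaemia, had 4 of 11 higher and 7 lower (median −1.19).

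**Figure D4:**
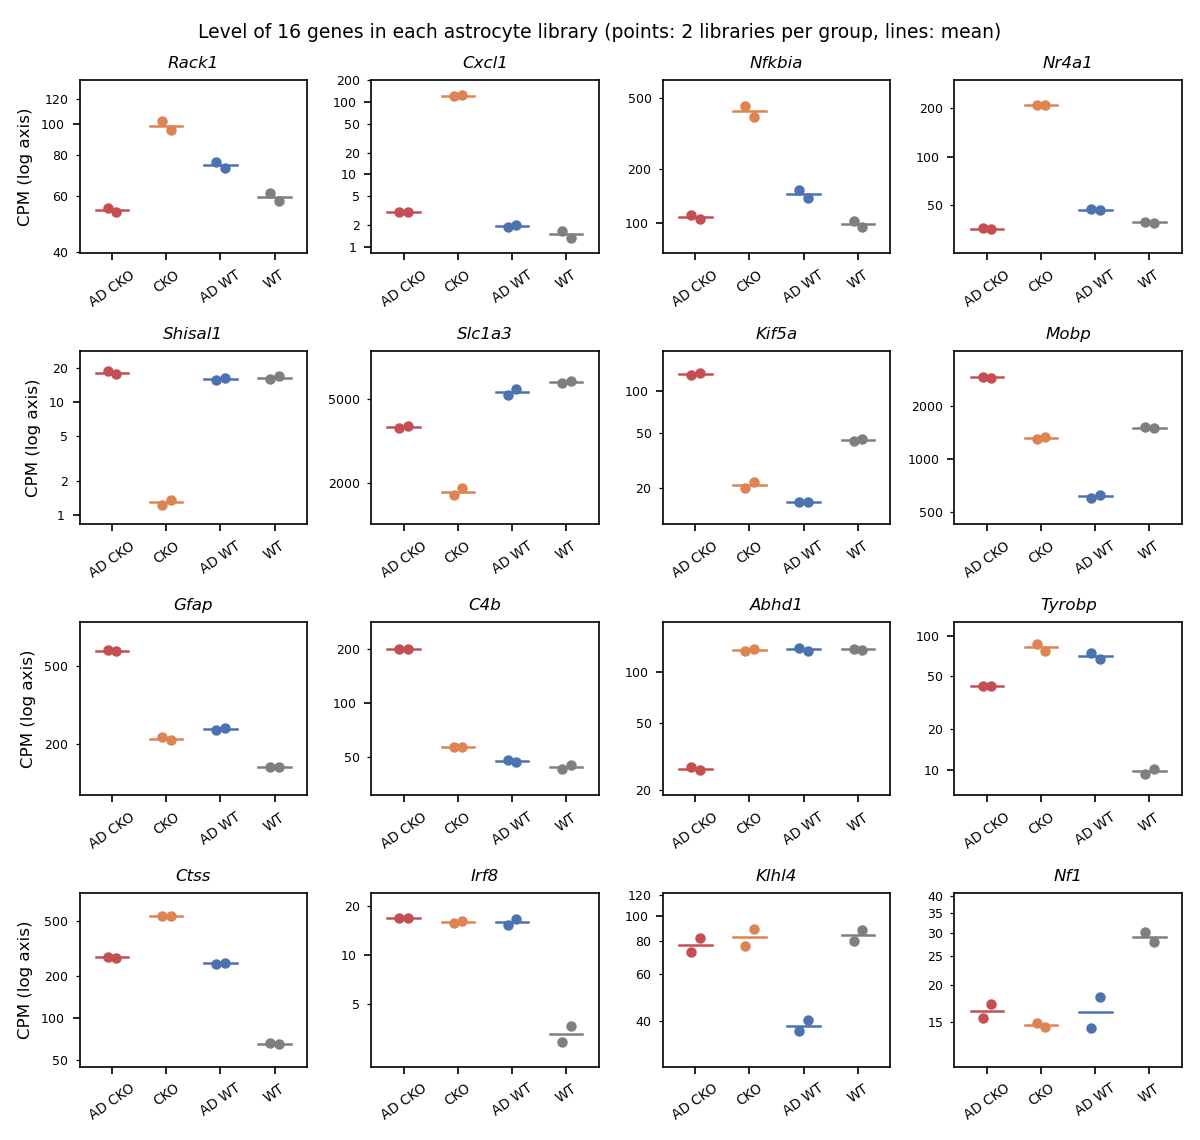
CPM of 16 genes (log vertical axes) in each astrocyte library, with 2 points and their mean as a line for each group. CKO departs in Cxcl1, Nfkbia, Nr4a1 and Shisal1, AD CKO in C4b and Abhd1, AD WT in Klhl4 and WT in Irf8, Tyrobp and Nf1.

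Homeostatic astrocyte genes fell with the knockout in both settings, most of them by less in the AD model. Of 30 homeostatic astrocyte genes 30 fell in AD CKO over AD WT (median −0.61, against 27% of all tested genes) and 29 fell and 1 rose in CKO over WT (median −0.98, against 32.4% and 31.6%). Their interaction was called higher in 19 and lower in 6 (median 0.48, and 0.31 with the length offset, where 18 were higher and 6 lower). Slc1a3, the gene of the glutamate transporter GLAST, had 3645 and 3716 CPM in AD CKO, 1752 and 1877 CPM in CKO, 5240 and 5573 CPM in AD WT and 5964 and 6136 CPM in WT libraries. The order was WT, AD WT, AD CKO and CKO from high to low without overlap, and the interaction was 1.18 ± 0.05 (adjusted p = 8.34e-14). Aldh1l1, the gene of a folate enzyme used as an astrocyte marker, had 215 and 211 CPM in AD CKO, 114 and 112 CPM in CKO, 324 and 327 CPM in AD WT and 371 and 366 CPM in WT libraries (interaction 1.09 ± 0.06). Grin2c, which encodes an NMDA receptor subunit, had an interaction of 1.31 ± 0.08, and Gja1, the gene of the gap junction protein connexin 43, one of 0.78 ± 0.05. With the length offset those values were 0.77 for Slc1a3, 0.71 for Aldh1l1, 0.87 for Grin2c and 0.46 for Gja1, and all of them passed. The summed astrocyte markers moved in parallel, as given above, and their 12 members had 9 called higher and 2 lower (median 0.56, and 0.21 with the length offset, where 7 were higher and 2 lower). All of these markers but Gfap are also in the homeostatic list, so this parallel was built in and is no separate observation.

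Shisal1 and Fam163a were set apart in CKO libraries by low values. Shisal1 stood at 19.1 and 17.7 CPM in AD CKO, 1.24 and 1.37 CPM in CKO, 15.7 and 16.5 CPM in AD WT and 16 and 17 CPM in WT libraries, with an interaction of 3.85 ± 0.18 (adjusted p = 7.77e-14), and Fam163a had 26.3 and 24.2 CPM in AD CKO, 4.89 and 4.26 CPM in CKO, 22.6 and 24.4 CPM in AD WT and 21.8 and 22.7 CPM in WT libraries, with an interaction of 2.38 ± 0.14. In both genes the other groups lay within a narrow band and the 2 CKO libraries far below it.

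Cholesterol synthesis genes had the same form. Of 22 cholesterol synthesis genes 14 were called higher and 5 lower (median 0.35), and 19 fell and 0 rose in AD CKO over AD WT (27% and 25.1% of all tested genes), against 20 and 1 in CKO over WT (32.4% and 31.6%). Sqle, the gene of squalene epoxidase, had 221 and 215 CPM in AD CKO, 138 and 146 CPM in CKO, 272 and 280.2 CPM in AD WT and 339 and 346 CPM in WT libraries. WT was highest and CKO lowest, and the interaction was 0.93 ± 0.07 (adjusted p = 6.22e-11) (0.52 with the length offset). The desaturase gene Scd2 had 2135 and 2206 CPM in AD CKO, 1269 and 1318 CPM in CKO, 1805 and 1900 CPM in AD WT and 2778 and 2890 CPM in WT libraries. It rose with the knockout in the AD model and fell without it, and its interaction was 1.36 ± 0.05. The lipid handling list as a whole had 8 of 18 higher and 6 lower (median 0.14).

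Secreted factors, matrix and clock genes were mixed as lists. Of 20 trophic and signalling genes 6 were higher and 5 lower (median 0.04, and −0.03 with the length offset, where 7 were higher and 7 lower), and of 20 extracellular matrix genes 9 were higher and 5 lower (median 0.42, and 0.12 with the length offset, where 7 were higher and 5 lower). Over all tested genes 29.5% were higher and 28.3% lower, near the shares of the trophic list without the offset. Vegfa, the gene of a vascular growth factor, had 243 and 250.4 CPM in AD CKO, 131 and 135 CPM in CKO, 286 and 294 CPM in AD WT and 392 and 416 CPM in WT libraries and an interaction of 1.37 ± 0.07 (2.45 with an offset by the principal transcript), and Bcan, which encodes the perineuronal matrix protein brevican, had 1338 and 1336 CPM in AD CKO, 716 and 708 CPM in CKO, 2149 and 2115 CPM in AD WT and 2376 and 2425 CPM in WT libraries and an interaction of 1.08 ± 0.05. Circadian clock genes had 9 of 17 higher and 3 lower (median 0.41, and 0.09 with the length offset, where 7 were higher and 5 lower), among them the repressor genes Cry2 at 124 and 124 CPM in AD CKO, 56 and 54.6 CPM in CKO, 144 and 144 CPM in AD WT and 141 and 143 CPM in WT libraries (interaction 1.15 ± 0.07) and Nr1d1 (interaction 0.77 ± 0.06). Glycolysis and lactate genes had 8 of 20 higher and 10 lower (median −0.20, and 0.07 with the length offset, where 9 were higher and 4 lower). Reported RACK1 binding partners had 8 of 18 higher and 5 lower (median 0.33, and 0.0086 with the length offset, where 8 were higher and 6 lower).

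Genes of amyloid biology had 13 of 18 called higher and 4 lower (median 0.75). App, the gene of the amyloid precursor protein, had 718 and 725 CPM in AD CKO, 592 and 613 CPM in CKO, 442 and 466 CPM in AD WT and 677 and 666 CPM in WT libraries. It was lowest in AD WT and highest in AD CKO libraries. It rose with the knockout in the AD model and fell slightly without it, with an interaction of 0.82 ± 0.06 (adjusted p = 6.06e-11) (0.50 with the length offset). The mouse gene cannot be told apart here from an AD transgene, if its reads were counted to this gene. Its paralogs moved in the same direction, Aplp2 with an interaction of 1.01 ± 0.06 and Aplp1 with one of 0.67 ± 0.05.

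Oligodendrocyte genes departed upwards. Of 12 oligodendrocyte markers 11 were called higher and 0 lower (median 0.99). All 12 rose in AD CKO over AD WT (median 0.70, against 25.1% of all tested genes), and all 12 fell in AD WT over WT (against 18%). In CKO over WT 4 rose and 6 fell (median −0.06), against 31.6% and 32.4% of all tested genes. AD WT was the group farthest from the rest, below it, for 10 of them. Mobp, which encodes a myelin protein, had 2882 and 2876 CPM in AD CKO, 1296 and 1323 CPM in CKO, 602 and 629.5 CPM in AD WT and 1508 and 1493 CPM in WT libraries. AD CKO was highest, AD WT lowest, and CKO and WT lay between, and the interaction was 2.42 ± 0.05 (adjusted p = 2.2e-19). Trf, the gene of transferrin, which oligodendrocytes make, had an interaction of 1.57 ± 0.05, and Mag, the gene of a myelin-associated adhesion protein, one of 1.44 ± 0.06. Bcas1, known from early myelinating oligodendrocytes, had 382 and 354 CPM in AD CKO, 139 and 137 CPM in CKO, 58.2 and 59.1 CPM in AD WT and 165 and 164 CPM in WT libraries, and its interaction was 2.90 ± 0.07.

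Kif5a, the gene of a neuronal kinesin heavy chain, had 132 and 135 CPM in AD CKO, 20.1 and 22.1 CPM in CKO, 15.8 and 16 CPM in AD WT and 43.6 and 45.3 CPM in WT libraries. AD CKO stood far above WT, and WT above CKO and AD WT, with an interaction of 4.15 ± 0.10 (adjusted p = 5.04e-19). Tppp, which encodes a microtubule protein of oligodendrocytes, and Erbb3, the gene of a neuregulin receptor, had opposite CKO effects. Tppp was at 179 and 189.7 CPM in AD CKO, 63.6 and 64.3 CPM in CKO, 60.4 and 58 CPM in AD WT and 194 and 197 CPM in WT libraries, with an interaction of 3.25 ± 0.08, and Erbb3 at 20.7 and 22.5 CPM in AD CKO, 6.93 and 6.83 CPM in CKO, 5.48 and 7.76 CPM in AD WT and 21.3 and 18.9 CPM in WT libraries, with one of 3.25 ± 0.18. In both genes AD CKO and WT were high and CKO and AD WT low. Of oligodendrocyte precursor markers 1 of 8 was higher and 2 lower (median −0.28), and of neuron markers 2 of 12 were higher and 1 lower (median −0.14, and −0.25 with the length offset, where 1 was higher and 2 lower), with neuron sums of 82.7 and 83.2 CPM in AD CKO, 104 and 104 CPM in CKO, 65.2 and 61 CPM in AD WT and 56.1 and 58.3 CPM in WT libraries. The summed oligodendrocyte markers given at the start were highest in AD CKO and lowest in AD WT, as were Mobp, which is part of that sum, and Bcas1, which is not. The part of these markers in the interactions could not be tested, since the sums differed by at most 2.7% within a group. Group and marker sum thus cannot be told apart.

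Reactive astrocyte genes had no common direction. Of 13 pan-reactive genes 5 were higher and 5 lower (median 0.16, and −0.09 with the length offset, where 3 were higher and 4 lower), against 29.5% and 28.3% of all tested genes. Gfap, the gene of the intermediate filament of reactive astrocytes, had 604 and 599 CPM in AD CKO, 218 and 209 CPM in CKO, 235 and 243 CPM in AD WT and 152 and 153 CPM in WT libraries. AD CKO was far above the rest and WT lowest. It was higher with the knockout in both settings, more so in the AD model (1.33 ± 0.04, against 0.48 ± 0.04 without it), and the interaction was 0.85 ± 0.06 (adjusted p = 1.26e-10). Serpina3n, which encodes a secreted protease inhibitor, had 60 and 61.2 CPM in AD CKO, 28 and 27.3 CPM in CKO, 30.5 and 32.4 CPM in AD WT and 30.8 and 27.7 CPM in WT libraries. Both AD CKO libraries lay far above the other 6, with an interaction of 1.03 ± 0.10. Osmr, the gene of the oncostatin M receptor, was likewise highest in AD CKO, at 40.6 and 46.4 CPM in AD CKO, 20.8 and 21.8 CPM in CKO, 16.3 and 18.2 CPM in AD WT and 24.1 and 23.2 CPM in WT libraries, with an interaction of 1.49 ± 0.12. Lcn2, described above, was the opposite case.

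Complement and interferon genes were also called in both directions. In the complement list 3 of 14 were higher and 8 lower (median −0.55, and −0.31 with the length offset, where 3 were higher and 7 lower). C4b had 201 and 201 CPM in AD CKO, 56.7 and 56.7 CPM in CKO, 48.3 and 46.8 CPM in AD WT and 42.8 and 45.1 CPM in WT libraries, with AD CKO far above the rest and an interaction of 1.71 ± 0.08 (adjusted p = 7.06e-14). The C1q genes, described below, were among those called lower. In the interferon response list 7 of 20 were higher and 8 lower (median −0.18, and 0.04 with the length offset, where 5 were higher and 7 lower), against 29.5% and 28.3% of all tested genes. All 20 rose in AD CKO over AD WT (against 25.1% of all tested genes), and 19 rose in CKO over WT (against 31.6%). The signalling gene Stat2 had 46.6 and 47.4 CPM in AD CKO, 15.6 and 16.3 CPM in CKO, 15.3 and 15.3 CPM in AD WT and 23.2 and 23.6 CPM in WT libraries. It rose in AD CKO over AD WT and fell in CKO over WT, and the interaction was 2.18 ± 0.11. Ifit2, an interferon-induced antiviral gene, had 50.4 and 53.1 CPM in AD CKO, 28 and 27.4 CPM in CKO, 18.1 and 17.3 CPM in AD WT and 19 and 21.8 CPM in WT libraries and an interaction of 1.11 ± 0.12. Bst2, which encodes the antiviral membrane protein tetherin, went the other way, at 63.8 and 57.6 CPM in AD CKO, 74.5 and 62.3 CPM in CKO, 29.3 and 26.8 CPM in AD WT and 13.7 and 12.8 CPM in WT libraries. WT was lowest in it, the AD CKO and CKO libraries did not differ detectably (adjusted p = 0.0705), and the interaction was −1.26 ± 0.13 (−0.26 with the length offset). Antigen presentation genes had 3 of 14 higher and 9 lower (median −1.12, and −0.69 with the length offset, where 3 were higher and 9 lower), among them B2m, the light chain of MHC class I, at 1201 and 1174 CPM in AD CKO, 2172 and 2143 CPM in CKO, 919.7 and 899 CPM in AD WT and 517 and 505 CPM in WT libraries (interaction −1.69 ± 0.05, −0.75 with the offset), and H2-D1 at −0.82 ± 0.06 (−0.54 with the offset), whose reads may be shared with other class I genes.

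Several genes were set apart in AD CKO by a high value. Adgb, which encodes androglobin, had 15.8 and 17.3 CPM in AD CKO, 4.89 and 5.50 CPM in CKO, 4.22 and 4.36 CPM in AD WT and 4.49 and 5.04 CPM in WT libraries (interaction 1.83 ± 0.20), and Crocc, the gene of the ciliary rootlet protein rootletin, had 21.5 and 19.3 CPM in AD CKO, 6.46 and 6.33 CPM in CKO, 6.71 and 7.02 CPM in AD WT and 5.43 and 6.93 CPM in WT libraries (interaction 1.53 ± 0.19). Hap1, which encodes a partner of huntingtin, had 24.7 and 23.9 CPM in AD CKO, 7.41 and 6.16 CPM in CKO, 6.45 and 6.46 CPM in AD WT and 7.90 and 7.54 CPM in WT libraries (interaction 2.09 ± 0.17), and Frmpd2 had 34 and 31.2 CPM in AD CKO, 8.53 and 10.4 CPM in CKO, 9.44 and 11.1 CPM in AD WT and 10 and 10.8 CPM in WT libraries (interaction 1.81 ± 0.16). The motile cilia regulator gene Foxj1, an ependymal marker, rose with the knockout in both settings, at 147 and 139 CPM in AD CKO, 77.8 and 81.4 CPM in CKO, 64.6 and 60.2 CPM in AD WT and 55.1 and 51.2 CPM in WT libraries, with an interaction of 0.61 ± 0.09. The ependymal and choroid markers as a list had 2 of 9 higher and 6 lower (median −0.62, and −0.41 with the length offset, where 3 were higher and 5 lower).

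In the proliferation list 8 of 20 were higher and 4 lower (median 1.05, and 0.63 with the length offset, where 10 were higher and 3 lower), and 12 rose and 2 fell in AD CKO over AD WT (against 25.1% and 27% of all tested genes). The interaction was called higher in 29.5% and lower in 28.3% of all tested genes. Mki67, the gene of a nuclear protein of cycling cells, was low throughout, at 2.20 and 2.29 CPM in AD CKO, 0.355 and 0.466 CPM in CKO, 0.205 and 0.0309 CPM in AD WT and 0.591 and 0.557 CPM in WT libraries, and its interaction was 4.67 ± 0.74, imprecise in size since the AD WT libraries were near 0. Mcm6, a gene of the replicative helicase, was set apart in AD CKO at 27.3 and 25.1 CPM in AD CKO, 13.4 and 15.6 CPM in CKO, 13.3 and 14.7 CPM in AD WT and 16.4 and 15.4 CPM in WT libraries, with an interaction of 1.04 ± 0.14 (0.64 with the length offset). The 4 called lower included Pcna, with an interaction of −0.74 (−0.18 with the length offset), and Cdk1, with one of −2.14.

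Abhd1, which encodes a protein with an alpha/beta hydrolase fold, was set apart in AD CKO by a fall. It had 27.3 and 26.3 CPM in AD CKO, 133 and 137 CPM in CKO, 139.7 and 134 CPM in AD WT and 138 and 136 CPM in WT libraries. The 6 other libraries lay between 133 and 139.7 CPM, and the interaction was −2.33 ± 0.08 (adjusted p = 2.05e-16). Hdhd3 and Nudt8 were also lower in AD CKO alone, at 9.45 and 9.48 CPM in AD CKO, 21.4 and 19.6 CPM in CKO, 22.7 and 19.8 CPM in AD WT and 25.4 and 22.2 CPM in WT libraries for Hdhd3 and 6.91 and 7.64 CPM in AD CKO, 14.6 and 13.6 CPM in CKO, 14.9 and 14.2 CPM in AD WT and 15.6 and 12 CPM in WT libraries for Nudt8. Their interactions of −0.95 ± 0.14 and −1.04 ± 0.17 lost their call with the length offset (−0.21, adjusted p = 0.18, and −0.22, adjusted p = 0.273).

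Microglial markers were higher in CKO and in AD WT than in WT astrocyte libraries, all 10 in both comparisons (against 31.6% and 20% of all tested genes). Of 10 microglial markers 9 were called lower and 1 higher (median −1.57), and of 20 disease-associated microglia genes 14 lower and 3 higher (median −0.81). Tyrobp, the gene of the adaptor DAP12, had 41.9 and 42.4 CPM in AD CKO, 86.5 and 76.6 CPM in CKO, 74.3 and 67 CPM in AD WT and 9.32 and 10.1 CPM in WT libraries. CKO was highest, AD WT next, AD CKO below both and WT far lowest. The CKO effect was −0.75 ± 0.07 in the AD model and 3.07 ± 0.09 without it, and the interaction was −3.81 ± 0.11 (adjusted p = 2.5e-17). Cst7, which encodes the protease inhibitor cystatin F and marks disease-associated microglia, had 28.4 and 24.3 CPM in AD CKO, 16.1 and 15.5 CPM in CKO, 44.6 and 43.2 CPM in AD WT and 0.348 and 0.309 CPM in WT libraries, with an interaction of −6.32 ± 0.21. Ccl6, a chemokine gene of the same state, had 13.4 and 12.4 CPM in AD CKO, 12.3 and 14.1 CPM in CKO, 35.5 and 33.1 CPM in AD WT and 2.96 and 2.66 CPM in WT libraries and an interaction of −3.64 ± 0.16. In both genes AD WT was highest and WT lowest.

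The complement gene C1qb had 240.1 and 236 CPM in AD CKO, 528 and 499 CPM in CKO, 189 and 175 CPM in AD WT and 40.9 and 42.6 CPM in WT libraries (interaction −3.23 ± 0.07), and C1qa had an interaction of −2.82 ± 0.10. The lysosomal protease gene Ctss had 275 and 272 CPM in AD CKO, 547 and 541 CPM in CKO, 246 and 249.8 CPM in AD WT and 66.4 and 64.7 CPM in WT libraries. CKO was highest, AD CKO and AD WT lay near each other, and the interaction was −2.91 ± 0.06. Cd68, a lysosomal membrane gene of phagocytes, had an interaction of −3.02 ± 0.10, and P2ry12, a purinergic receptor gene of resting microglia, one of −1.81 ± 0.07. The lysozyme gene Lyz2 had 659.8 and 630.5 CPM in AD CKO, 1528 and 1510 CPM in CKO, 147 and 148 CPM in AD WT and 64.7 and 67.1 CPM in WT libraries. It rose with the knockout in both settings, and its interaction was −2.40 ± 0.06. Lysosome and autophagy genes as a list had 2 of 22 higher and 11 lower (median −0.21, with 5 and 11 with the length offset), and markers of border macrophages and monocytes 2 of 9 higher and 5 lower (median −1.17, and −0.38 with the length offset, where 0 were higher and 4 lower). Over all tested genes 29.5% were called higher and 28.3% lower.

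Irf8, a transcription factor gene of microglia, was set apart in WT by a low value, at 16.8 and 16.9 CPM in AD CKO, 15.8 and 16.1 CPM in CKO, 15.3 and 16.5 CPM in AD WT and 2.92 and 3.65 CPM in WT libraries. The other groups did not differ detectably, and the interaction was −2.19 ± 0.17 (adjusted p = 2e-10). Hpgds, the gene of a prostaglandin D synthase, had the same form, at 12.7 and 11 CPM in AD CKO, 12.3 and 12.3 CPM in CKO, 10.6 and 13.6 CPM in AD WT and 4.24 and 5.53 CPM in WT libraries, with an interaction of −1.35 ± 0.20. The chemokine gene Ccl3 had 19.4 and 17.3 CPM in AD CKO, 20.1 and 19.6 CPM in CKO, 17 and 14.6 CPM in AD WT and 1.95 and 2.47 CPM in WT libraries and an interaction of −2.94 ± 0.18 (−1.93 with the length offset). The microglial marker sums given at the start were likewise lowest in WT. Unlike Irf8 and Hpgds, the sums also differed among the other groups and were highest in CKO. Their part in these interactions was not tested. Without the 2506 tested genes that were at least 4-fold higher in WT microglia than in WT astrocyte libraries, 17583 genes were tested. Of these 5315 were called higher and 4917 lower. Of the 2506 themselves 1381 were called, 538 higher and 843 lower. Over all tested genes 57.8% were called, 29.5% higher and 28.3% lower.

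Fcho1 and Nf1 were set apart in WT by a high value. Fcho1, which encodes a protein of clathrin-coated pits, had 8.08 and 8.01 CPM in AD CKO, 8.74 and 11 CPM in CKO, 6.22 and 9.62 CPM in AD WT and 23.7 and 21.6 CPM in WT libraries (interaction 1.23 ± 0.24). Nf1, the gene of the Ras regulator neurofibromin, had 15.4 and 17.3 CPM in AD CKO, 14.8 and 14.4 CPM in CKO, 14.3 and 18.1 CPM in AD WT and 30.2 and 27.9 CPM in WT libraries (interaction 1.00 ± 0.15). In both genes the other groups did not differ detectably among themselves.

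Most vessel genes were highest in CKO. Of 9 endothelial markers 5 were lower and 2 higher (median −0.43, and −0.80 with the length offset, where 2 were higher and 7 lower), and of 8 mural markers 7 were lower and 1 higher (median −1.21). Over all tested genes 28.3% were called lower and 29.5% higher. Ly6c1 had 699.7 and 664 CPM in AD CKO, 1908 and 1844 CPM in CKO, 709 and 671 CPM in AD WT and 459 and 439.6 CPM in WT libraries (interaction −2.08 ± 0.06, −1.13 with the offset), the tight junction gene Cldn5 514 and 496 CPM in AD CKO, 1092 and 1024 CPM in CKO, 502 and 461 CPM in AD WT and 370.5 and 357 CPM in WT libraries (interaction −1.47 ± 0.07, −0.86 with the offset) and Itm2a 953 and 925 CPM in AD CKO, 2511 and 2675 CPM in CKO, 908 and 944 CPM in AD WT and 741 and 737 CPM in WT libraries (interaction −1.79 ± 0.06). In these genes AD CKO and AD WT did not differ detectably, and CKO lay above them. Tek, the gene of the angiopoietin receptor, was called higher, at 133 and 136 CPM in AD CKO, 87.2 and 92.8 CPM in CKO, 74.7 and 80.7 CPM in AD WT and 96 and 92.1 CPM in WT libraries, with an interaction of 0.85 ± 0.08 (0.42 with the offset). Among smooth muscle genes Tagln had an interaction of −1.81 ± 0.07 and Acta2 one of −1.37 ± 0.06. Of 8 fibroblast markers 3 were lower and 0 higher (median −0.13, and −0.22 with the length offset, where 0 were higher and 3 lower).

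AD WT stood high in haemoglobin genes and low in a few others. Of 5 erythroid markers 5 were called lower and 0 higher (median −2.20, and −1.14 with the length offset, where 0 were higher and 5 lower), with sums of 104 and 94.5 CPM in AD CKO, 163 and 133 CPM in CKO, 508 and 417 CPM in AD WT and 154 and 140.0 CPM in WT libraries. Hbb-bs, a beta-globin gene, had 37.9 and 38.5 CPM in AD CKO, 58.1 and 43.7 CPM in CKO, 187 and 156 CPM in AD WT and 55.7 and 49 CPM in WT libraries (interaction −2.13 ± 0.24, −0.99 with the length offset), and Hba-a1, an alpha-globin gene with a near-identical copy with which reads may be shared, had an interaction of −2.28 ± 0.21 (−1.21 with the offset). Klhl4, on the X chromosome, was lower in AD WT alone, at 73.2 and 81.9 CPM in AD CKO, 76.6 and 89.2 CPM in CKO, 36.6 and 40.3 CPM in AD WT and 80.3 and 88.2 CPM in WT libraries, with an interaction of 1.04 ± 0.11 (adjusted p = 9.57e-07). Smtnl2 had the same form, at 9.84 and 10.8 CPM in AD CKO, 8.92 and 8.69 CPM in CKO, 3.11 and 3.34 CPM in AD WT and 9.43 and 7.88 CPM in WT libraries, with an interaction of 1.65 ± 0.20. Tsix, which overlaps Xist on the opposite strand, had 0.167 and 0.426 CPM in AD CKO, 0.326 and 0.500 CPM in CKO, 35.5 and 31.5 CPM in AD WT and 0.0696 and 0.186 CPM in WT libraries. The strand of counting is not given in the sources used here, so its reads and those of Xist cannot be told apart.

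Ribosomal protein genes departed downwards almost without exception. Of 78 genes 76 were called lower and 0 higher (median −1.53). In CKO over WT 76 rose (median 1.19, against 31.6% of all tested genes), and in AD CKO over AD WT 38 fell and 0 rose (median −0.34, against 27% and 25.1%). CKO was set apart in 29 of them. These are short transcripts, with a median length of 1076.5 bases against 3011.5 over all tested genes. With the length offset 73 were lower and 1 higher, with a median of −0.72. That offset uses the longest transcript, and it made some interactions more negative, as in Rps15a (−1.73 to −2.18) and Rps24 (−1.19 to −1.55). The median with an offset by the principal transcript was not taken for this list. Many have processed pseudogenes to which reads can be assigned. Rpl10, a large subunit gene, had 66.6 and 65.7 CPM in AD CKO, 141 and 124 CPM in CKO, 94.4 and 86 CPM in AD WT and 67.5 and 61.2 CPM in WT libraries. CKO was highest, AD WT next, and AD CKO overlapped WT. The interaction was −1.50 ± 0.10 (adjusted p = 6.09e-11), and −0.59 with the offset. Rps6, whose product is phosphorylated downstream of mTOR, had an interaction of −1.25 ± 0.08 (−0.47 with the offset), and Rplp0 one of −1.07 ± 0.08 (−0.43 with the offset).

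Translation factors had 6 of 34 higher and 26 lower (median −0.57), against 29.5% and 28.3% of all tested genes. With the offset 4 were higher and 23 lower. Eif1, which helps to select the start codon, had 607 and 576 CPM in AD CKO, 1133 and 1079 CPM in CKO, 872 and 819 CPM in AD WT and 776 and 733 CPM in WT libraries. The interaction was −1.07 ± 0.06 (−0.40 with the offset). Eif3b, the gene of a scaffold subunit of eIF3, moved the other way, at 91.6 and 90.4 CPM in AD CKO, 58.9 and 54.7 CPM in CKO, 71.9 and 76.3 CPM in AD WT and 94.8 and 89.2 CPM in WT libraries, with an interaction of 0.99 ± 0.08.

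Nuclear genes of oxidative phosphorylation had 2 of 34 higher and 29 lower (median −1.12; 6 and 26, median −0.37, with the offset). In AD CKO over AD WT 31 fell and 0 rose (against 27% and 25.1% of all tested genes), and in CKO over WT 24 rose and 5 fell (against 31.6% and 32.4%). Ndufa1, a gene of complex I, had 60.1 and 59 CPM in AD CKO, 161 and 141 CPM in CKO, 97.7 and 86.2 CPM in AD WT and 64.1 and 59.8 CPM in WT libraries. The interaction was −1.91 ± 0.10 (−0.56 with the offset). Atp5c1, a gene of the ATP synthase, had an interaction of −0.95 ± 0.06 (−0.51 with the offset, and −0.24 with one by the principal transcript). Sdha, the gene of the flavoprotein subunit of complex II, went the other way, at 474 and 489 CPM in AD CKO, 264 and 274 CPM in CKO, 480.2 and 498 CPM in AD WT and 586 and 569 CPM in WT libraries, with an interaction of 1.08 ± 0.06. Of 13 mitochondrially encoded genes 12 were lower and 0 higher (median −1.18), against 3 and 0 with the offset (median −0.25). mt-Atp6 had 2882 and 2906 CPM in AD CKO, 6464 and 6700 CPM in CKO, 3133 and 3197 CPM in AD WT and 3148 and 3327 CPM in WT libraries, with CKO far above the other groups. Its interaction of −1.15 ± 0.05 lost its call with the offset (−0.08, adjusted p = 0.741), and so did that of mt-Cytb (−1.18 ± 0.06, and −0.41 with the offset, adjusted p = 0.072).

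**Figure D5:**
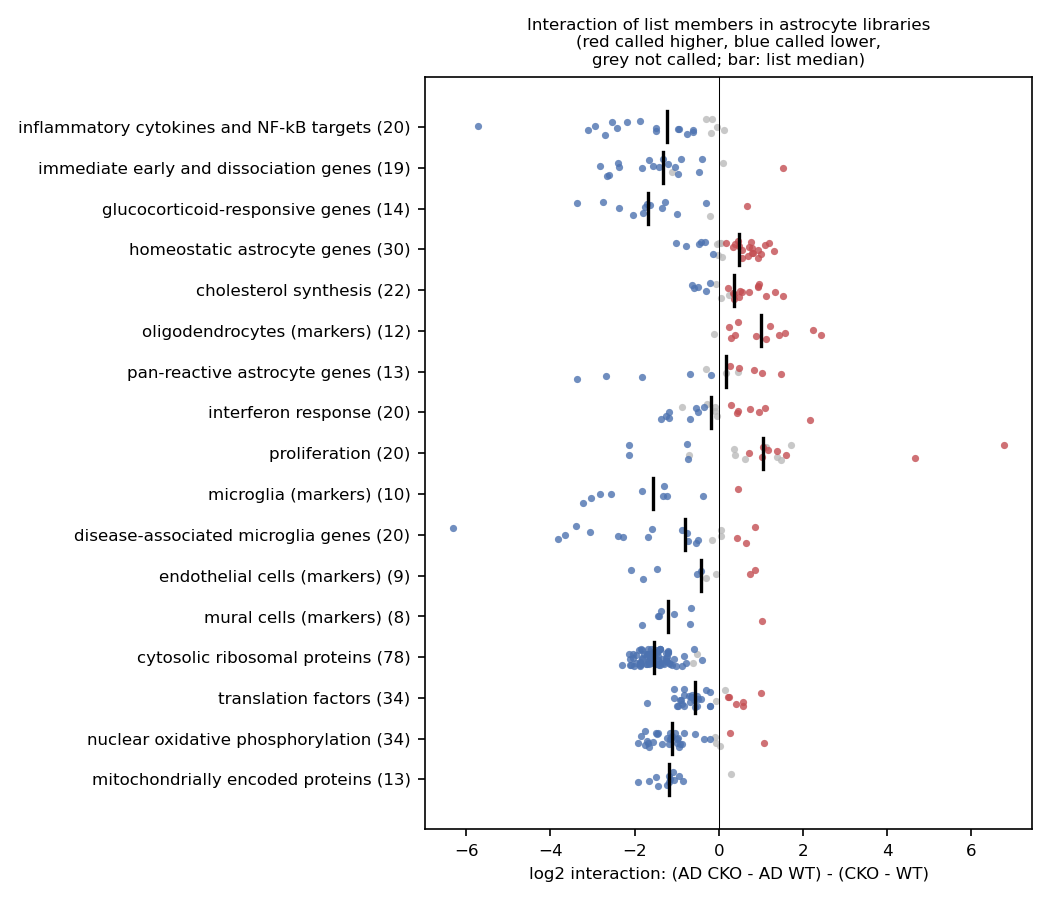
Log2 interaction (horizontal axis) of the tested members of 17 lists, 1 point per gene, in red where called higher, in blue where called lower and in grey where not called, with a bar at the list median and the number of tested members in brackets. Of 12 oligodendrocyte markers 11 lie to the right of 0, and ribosomal protein, NF-kB target, glucocorticoid-responsive and microglial genes lie mostly to its left.

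The same contrast was taken in the 8 microglia libraries, where the interaction was called for 2202 of 17318 genes (12.7%), 5.53% higher and 7.19% lower. The test of the difference between the interactions of the libraries labelled astrocyte and microglia was called for 8282 of 20589 genes (40.2%), 4499 higher and 3783 lower in astrocyte libraries. Of the 11403 astrocyte calls that could be tested, 7408 (65%) differed. Rack1 had an interaction of −0.03 ± 0.09 in microglia (adjusted p = 0.867), and the difference between the libraries was −1.17 ± 0.12 (adjusted p = 8.12e-09). That of Cxcl1 was −0.41 in microglia (adjusted p = 0.8), with a difference of −5.32 (adjusted p = 1.46e-09), and that of Nr4a1 was −1.21 in microglia, with a difference of −1.61 (adjusted p = 1.18e-09). For C4b the interaction was 0.02 in microglia (adjusted p = 0.94), with a difference of 1.69 (adjusted p = 6.83e-11). For Hbb-bs it was −1.55 in microglia, and the difference of −0.58 was not detectable (adjusted p = 0.411). Among ribosomal protein genes the interaction differed from that in microglia for 73 of 78. No length offset entered the test against microglia, so the part of length in these differences was not tested. Sex-linked RNA differed among the microglia groups as well, and between astrocyte and microglia libraries of the same group. In microglia Xist was at 85.2 and 79.2 CPM in AD CKO, 254 and 233 CPM in CKO, 145 and 158 CPM in AD WT and 191 and 189 CPM in WT libraries, and the Y-linked gene Ddx3y at 62.4 and 60.2 CPM in AD CKO, 0.0318 and 0.308 CPM in CKO, 31.1 and 28 CPM in AD WT and 7.67 and 5.50 CPM in WT libraries. Ddx3y lay at 90.5 CPM or more in all 8 astrocyte libraries, and Xist at most at 0.167 CPM in those outside AD WT. The astrocyte and microglia libraries of a group therefore cannot be taken to come from the same mice. The part of sex-linked RNA in the differences between the interactions was not tested.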

How the data were processed

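RNA-seq was made from 16 mouse libraries, and the 8 from astrocytes are reported. The authors deposited expected counts per gene, which are not all whole (27.5 to 32.9% of values above 0 per library). The submitters' processing notes name fastp, HISAT2, StringTie and the build mm10, and their settings, with the strand of counting, are not given in the sources used here. Features with no gene symbol (1542 of 56980) kept their identifiers.

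Counts were rounded to whole numbers. Low genes were removed with filterByExpr, libraries were scaled by TMM, and 4 group means were fitted with edgeR 4.0.16 (R 4.3.3, robust quasi-likelihood test), with the interaction and 6 pairwise contrasts, each adjusted by Benjamini-Hochberg over 20116 genes at 0.05. At these depths 3 counts are 0.0799 to 0.104 CPM, and the fit has 4 residual degrees of freedom. The difference from microglia was fitted over all 16 libraries. The procedure was tested on simulated data. Alternatives were RLE scaling, DESeq2 1.42.0, limma 3.58.1 (voom), other filters, a replicate block, each library left out, microglia-enriched genes left out, an oligodendrocyte marker covariate, and an offset by transcript length (GENCODE M21, longest transcript, 97.1% of tested genes). The offset by the principal transcript was chosen after seeing the data. Promoters are from RefSeq.

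Same-numbered libraries of different groups deviated alike. Their deviations from the group means correlated at 0.176 to 0.391 over 10960 genes in all 6 pairs of groups. The labels name no shared litter or day, so they do not say if the replicate numbers pair the samples, and the source of this likeness was not tested. The reported fit has no term for the replicate number, and the block by it is given below as an alternative.

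The genes named are Rack1, the 12 largest interactions each way with a mean of at least 5 CPM, leaders among the genes set apart and among those with opposite CKO effects, and up to 4 members of each of 41 lists (28 gene groups and 13 sets of cell type markers) with the smallest p. Only some of the genes that this rule selects are named. The members of these lists were chosen with earlier results of these data known. Some of the genes selected are not reported here.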

Additional observations from a re-analysis of the deposited data

Results flagged for a closer look

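The CKO effect differed between the AD model and its absence by the test of the interaction itself for 5940 genes in the higher and 5690 in the lower direction. The interaction differed between astrocyte and microglia libraries for 4499 genes higher and 3783 lower in astrocyte libraries.

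Of 97 genes looked at one by one, 50 were called in microglia, and 24 had called interactions of opposite sign in the 2 kinds of library with a difference that passed. Over all genes tested in microglia 12.7% were called, and the share with opposite called signs was not taken. Apart from Rack1 the 97 were picked by their astrocyte values, so these counts are no result about them. The values below are the log2 interaction in astrocyte minus that in microglia libraries. Among immune and microglial genes the difference was −6.79 for Ch25h, −2.68 for Icam1, −6.56 for Cst7, −3.07 for Ctss, −2.10 for P2ry12 and −4.17 for Ccl6. Among astrocyte, lipid and matrix genes it was 2.93 for Aldh1l1, 1.95 for Gja1, 1.86 for Gfap, 2.35 for Osmr, 1.99 for Scd2 and 2.61 for Bcan. It was 4.89 for Mobp, 4.99 for Bcas1 and 6.68 for Kif5a, genes of oligodendrocytes and neurons. It was 1.80 for Ifit2, 1.29 for Aplp2 and 1.28 for Aplp1. The remaining values were 8.24 for Shisal1, 2.53 for Klhl4, 5.79 for Mki67, −2.32 for Hdhd3, 2.26 for Fcho1 and 1.72 for Tek. Shisal1 averaged only 0.0685 CPM in AD CKO and 1.47 CPM in CKO microglia libraries, so the size of its difference is imprecise. The difference of Mki67 is imprecise too, since the gene was near 0 in AD WT astrocyte libraries. The astrocyte interaction of Hdhd3 lost its call with the length offset, as given above. Several of these genes are markers of cell types other than those the libraries are named for. For them, a change in the make-up of the libraries and a change per cell cannot be told apart.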

How the results depend on the processing

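Of 150 values of 9 counts under the alternatives, 141 were within 1.5 times the reported count. Genes called higher and lower were 6084 and 5555 with RLE, 5339 and 4689 with DESeq2, 5943 and 5707 with limma-voom, and 5467 and 5122 with the offset by the principal transcript. With the replicate block they were 6194 and 5934, and the block changed no other call count by over 1.5 times. Against microglia, RLE gave 4923 higher and 3461 lower. Leaving out 1 library gave 5549 to 5891 higher and 5080 to 5397 lower, 459 to 682 with AD CKO set apart, 1126 to 1716 with CKO, 196 to 311 with AD WT (196 without AD WT replicate 1), 228 to 361 with WT (228 without WT replicate 2), 2546 to 3321 with opposite effects, and 4197 to 4553 higher and 3225 to 3692 lower against microglia.

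With the oligodendrocyte marker covariate 139 genes were higher and 7 lower, AD CKO was set apart in 0, CKO in 0, AD WT in 1 and WT in 0, and 40 had opposite effects. Of these 146 calls 4 had the sign reported and 126 the other sign. The median standard error was 4.74 against 0.179 without it, so the groups and this covariate cannot be told apart and no gene value is taken from that fit. In the other alternatives 1616 of 1624 values of single genes stayed on the same side of the threshold and 0 reversed. With 2 libraries a group, genes of low count have the least precise interactions.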
